A study of Mus musculus with 6 samples.

Results

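The IFIT antiviral family was followed through every probe set of the array annotation that lists Ifit1, Ifit2, Ifit3 or Ifit3b. The rule found 4 of the 19938 genes with a probe set of their own, each with 1 probe set of the 35556 in the table, and 0 of the 4 probe sets were shared with another gene. The family was chosen by earlier results of these data, namely higher values of Ifit1 and Ifit3 in cells given H19 siRNA. The differences of the 4 members below are therefore a description, and nothing is drawn from a test of them. RNA came from C2C12, an established line of mouse myoblasts, which fuse into myotubes in low serum. For all 6 arrays the cells had been moved from 10% fetal bovine serum to 2% horse serum at about 90% density and were transfected at day 1 of differentiation. The control group (control siRNA, siCon) and the knockdown group (H19 siRNA, simH19) had 3 arrays each, with RNA taken 40 h after transfection. Every array thus came from a transfected culture of wild type cells, and untransfected cells were not analysed here. The labels do not say that the triplicates were separate experiments, so the spread between arrays may be technical.

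IFIT proteins (interferon-induced proteins with tetratricopeptide repeats) are made of helical repeats and are among the genes that respond most strongly to type I interferon. Interferon binding to its receptor activates the kinases Jak1 and Tyk2, and a resulting complex that includes Stat2 and Irf9 binds response elements in the promoters of these genes. Irf3, activated when a cell senses foreign RNA, can bind the same elements without interferon. Ifit1 binds capped RNA that lacks ribose methylation next to the cap and so blocks its translation. Human IFIT3 binds and stabilises IFIT1. Ifit2 limits neurotropic viruses in mice, and Ifit3b is a close copy of Ifit3 that mice carry.

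Sequences around a listed gene start are shown because 3 of the 4 members have matches there to the core of the element that interferon signalling uses. They also show how alike Ifit3 and Ifit3b are. In the RefSeq table for GRCm38.p6 the 6 genes of the family lie within 112 kb of chromosome 19, in the order Ifit2, Ifit3, Ifit1bl1, Ifit3b, Ifit1bl2 and Ifit1. The core of the interferon-stimulated response element was searched on both strands as GAAA, any 2 bases (NN) and GAAA again, with overlaps allowed. The windows ran from 250 bases before to 50 bases after each start listed for a gene. That start need not be the first base of the gene. In the RefSeq table Ifit3 begins at 34583119 and Ifit3b at 34607530, before their windows begin. All 4 members had such a window. The sequences below are from RefSeq (GRCm38.p6), on the strand of the gene from 5′ to 3′. Capitals mark the matches, which read TTTC, 2 bases and TTTC here because they lie on the other strand.
Ifit1, chr19:34640639-34640938, plus strand: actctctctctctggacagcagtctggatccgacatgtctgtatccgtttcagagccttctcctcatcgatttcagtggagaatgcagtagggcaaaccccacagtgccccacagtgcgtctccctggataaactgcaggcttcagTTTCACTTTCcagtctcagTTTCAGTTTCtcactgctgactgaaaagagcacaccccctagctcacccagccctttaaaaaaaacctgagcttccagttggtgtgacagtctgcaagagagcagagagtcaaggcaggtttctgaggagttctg
Ifit3, chr19:34583279-34583578, plus strand: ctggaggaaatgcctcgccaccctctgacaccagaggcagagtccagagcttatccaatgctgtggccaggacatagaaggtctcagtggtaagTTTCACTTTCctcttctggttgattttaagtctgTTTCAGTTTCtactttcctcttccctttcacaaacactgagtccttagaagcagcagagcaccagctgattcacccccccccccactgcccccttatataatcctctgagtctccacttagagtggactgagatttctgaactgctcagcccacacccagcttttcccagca
Ifit3b, chr19:34607707-34608006, plus strand: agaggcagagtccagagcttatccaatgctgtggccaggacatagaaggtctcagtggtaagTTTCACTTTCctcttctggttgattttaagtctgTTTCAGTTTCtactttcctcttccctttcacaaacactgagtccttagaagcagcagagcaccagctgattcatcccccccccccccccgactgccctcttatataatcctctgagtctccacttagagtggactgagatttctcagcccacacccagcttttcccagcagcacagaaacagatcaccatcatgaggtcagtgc

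The Ifit1 window held 2 matches, at 104 to 95 and at 85 to 76 bases upstream of the start, 9 bases apart. Counted from the start its window was set on, Ifit3 had 2 matches at 156 to 147 and 122 to 113 bases upstream. Ifit3b had the same pair of matched letters at 188 to 179 and 154 to 145 bases upstream of its own such start. Both pairs lie after the first base of the gene in the RefSeq table. In both copies 24 bases separated the matches. When the Ifit3 and Ifit3b windows were aligned, 258 of 260 aligned bases were identical. Each window has 300 bases, and those opposite a gap, inside the windows or at their ends, were left out of that count. The 2 windows listed for Ifit2 held 0 matches, which says only that these letters are not in those windows. Of all 32851 windows 3.44% held the motif at least once and 0.225% held it 2 or more times. The Ifit1 window shares 245 bases with the window of Ifit1bl2, which is read from the opposite strand, and both matches lie in the shared stretch.

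The array signal closest to the targeted transcript was lower on each H19 siRNA array. H19 itself was not listed in the annotation, and the check used the probe set listed under Mir675, a microRNA inside H19, and Supt6. Its log2 values lay between 12.21 and 12.27 with control siRNA and between 10.28 and 10.38 with H19 siRNA. All 15 pairs of arrays correlated at 0.996 or 0.997 across all rows, and array medians ran from 6.73 to 6.78. The 21559 annotated units were fitted together with limma, and 43 of them (0.199%) had an adjusted p under 0.05, 27 higher and 16 lower with H19 siRNA. At an unadjusted p under 0.05 in that fit, 1424 units were higher and 916 lower, the scale for such counts in the lists below. Muscle genes were well detected: Myod1 had a control mean of 11.55, Des of 12.46 and Acta1 of 12.47.

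Ifit1, the cap-sensing member, read 9.04, 9.01 and 9.00 on the control arrays, against 9.65, 9.73 and 9.69 after H19 knockdown. The groups lay far apart relative to their spread, with 0.61 between the highest control array and the lowest H19 siRNA array. Its mean went from 9.02 ± 0.02 to 9.69 ± 0.04 (SD, n = 3 each), a log2 difference of 0.67 (SE 0.04), or 1.60-fold. Among the members it had the narrowest spread in both groups.

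Ifit3, the partner of IFIT1 in human cells, read 9.03, 8.99 and 8.81 with control siRNA and 9.74, 9.73 and 9.81 with H19 siRNA. Control replicate 3 stood below the other control arrays, while the H19 siRNA arrays lay close together, and the gap between the groups was 0.70. The mean went from 8.95 ± 0.12 to 9.76 ± 0.04 (SD, n = 3 each), a log2 difference of 0.81 (SE 0.06), or 1.76-fold. Of all 21559 units only 2 had a higher log2 difference than Ifit3, and Ifit1 came directly after it. Without control replicate 3 the Ifit3 difference was 0.75.

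Ifit3b, the copy of Ifit3, had a much dimmer probe set, at the 34.8th percentile of mean signal over all rows, against 74.7 for both Ifit1 and Ifit3. It read 5.32, 5.56 and 5.59 with control siRNA and 6.24, 5.69 and 6.0 after H19 knockdown. The groups did not overlap, but H19 siRNA replicate 2 lay only 0.10 above the highest control array. The log2 difference was 0.48 (SE 0.14), or 1.40-fold, between means of 5.49 ± 0.15 and 5.97 ± 0.28 (SD, n = 3 each). It was 0.63 without H19 siRNA replicate 2 and 0.35 without H19 siRNA replicate 1, the widest range of the family. Hybridisation of Ifit3 transcripts to the Ifit3b probe set was not tested, since probe sequences were not used here.

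Ifit2 differed least. It read 8.91, 8.84 and 8.93 with control siRNA, against 9.04, 8.95 and 9.00 with H19 siRNA. The groups were separated by only 0.02, less than the SD within either of them. Its means were 8.90 ± 0.05 and 9.00 ± 0.04 (SD, n = 3 each), a log2 difference of 0.10 (SE 0.04), or 1.07-fold. Its brightness, at the 70.7th percentile of all rows, was near that of Ifit1 and Ifit3.

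**Figure D1:**
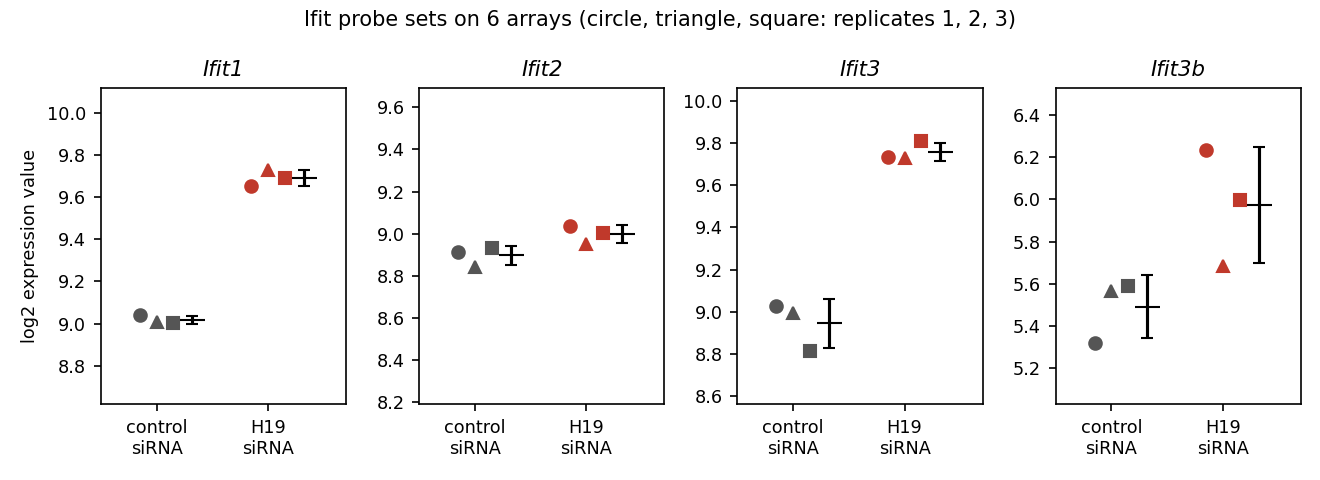
Log2 expression values (y axis) of the 4 Ifit probe sets on 3 control siRNA arrays (grey) and 3 H19 siRNA arrays (red), each panel spanning the same length of scale; bars are mean ± SD, n = 3. Ifit1 and Ifit3 show gaps of 0.61 and 0.70 between groups, Ifit3b has the widest spread, and the Ifit2 groups are 0.02 apart.

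The 4 members therefore shared a direction but not a size. All 4 had a positive difference and for all 4 the lowest H19 siRNA array was above the highest control array, where 10.5% of all units had that order. In the limma fit 2 of the 4, Ifit1 and Ifit3, had an adjusted p under 0.05 as higher, where 0.125% of all units did, and 0 as lower, where 0.0742% did. The members were chosen in view of this contrast, so these shares are given only for scale. The median log2 difference of the members was 0.58, against 0.01 for all units. The difference of Ifit3 exceeded that of Ifit1 by 0.14, that of Ifit3b by 0.33 and that of Ifit2 by 0.71 on the log2 scale. The fit called 0 members without control replicate 1 or without H19 siRNA replicate 3, and 1 (Ifit1) without control replicate 2, without H19 siRNA replicate 1 or over all rows of the table.

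The arrays of a group did not rank alike from member to member. Averaged over the 4 members, log2 values were 8.08, 8.10 and 8.08 with control siRNA and 8.67, 8.53 and 8.63 with H19 siRNA. H19 siRNA replicate 2 was the lowest of its group in this average, and Ifit3b alone lay 0.29 below its group mean there. On the same array Ifit1 was at its highest, 0.04 above its group mean. The Mir675 and Supt6 probe set was also at its lowest on that array, at 10.28.

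The 1 other IFIT-like gene that was measured did not pass the threshold. Ifit1bl2, the IFIT-like gene whose start lies next to that of Ifit1, read 4.0, 4.06 and 4.12 with control siRNA, against 4.08, 4.0 and 4.26 with H19 siRNA. The groups overlapped, with a log2 difference of 0.05 (SE 0.07) and a limma adjusted p of 0.840. Its signal was at the 6.24th percentile of all rows, so a low level cannot be told from background. Ifit1bl1 was not analysed here.

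Of the 9 neighbours on either side of the cluster 0 passed in limma, with 1 higher and 2 lower at an unadjusted p under 0.05. Their median log2 difference was -0.01. Lipa, lysosomal acid lipase and the nearest of the listed neighbours on the Ifit2 side, differed by -0.21 (limma adjusted p = 0.165). Ch25h, the next one out and itself interferon-inducible as the maker of 25-hydroxycholesterol, differed by -0.07, and Fas, a death receptor, by -0.01. On the Ifit1 side Slc16a12, a monocarboxylate transporter, differed by 0.04, and Pank1, a pantothenate kinase, by -0.23 (adjusted p = 0.259). Ankrd22, farther out, differed by 0.18 (adjusted p = 0.256) from a control level of 5.08. Stambpl1, Acta2 and Kif20b differed by 0.00, 0.05 and -0.13. The intensity trend let 1 neighbour pass, as lower, and so did the filter at the median. As lower, 193 of 21559 units passed with the trend and 121 of 10779 with that filter.

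**Figure D2:**
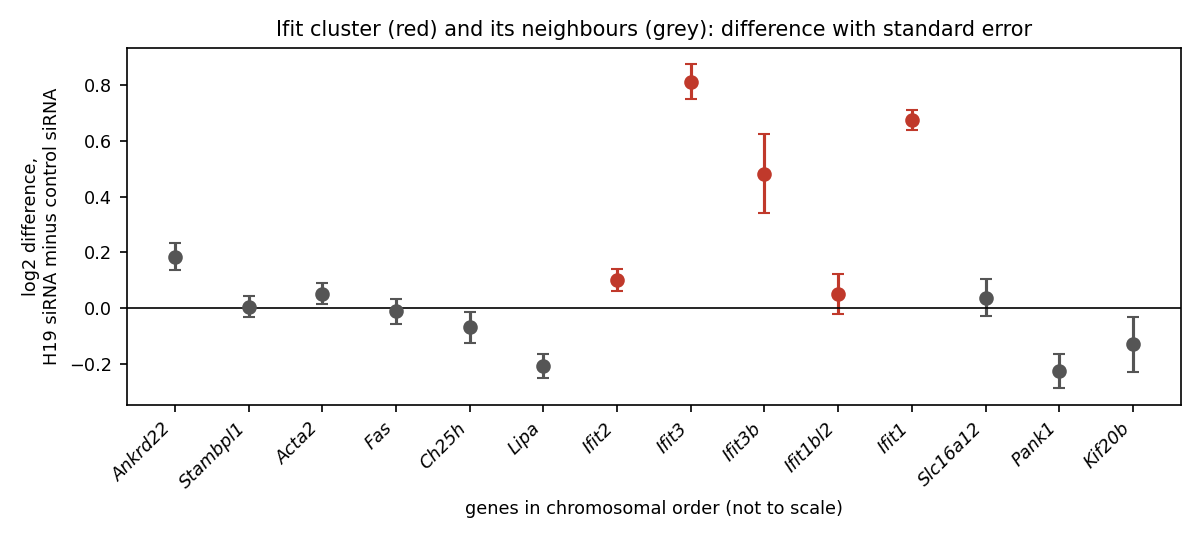
Log2 difference, H19 siRNA minus control siRNA (y axis), for genes of the Ifit cluster (red) and its neighbours (grey) in chromosomal order; points are estimates from 3 against 3 arrays and bars the standard error. Ifit3, Ifit3b and Ifit1 stand at 0.81, 0.48 and 0.67, while Ifit2, at the edge of the cluster, and Ifit1bl2, next to Ifit1, lie at 0.10 and 0.05.

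Among other interferon-stimulated effector genes 8 of 45 measured rose and 0 fell in limma, where 0.125% and 0.0742% of all units did. Each of the 8 had a smaller log2 difference than Ifit1 and Ifit3. In all 40 had a positive difference, and the median log2 difference was 0.21 against 0.01 for all units. In 29 of the 45 the H19 siRNA arrays all lay above the control arrays, and in 2 they all lay below, where 10.5% and 7.09% of all units did. The 2 lower ones, named after their values were seen, were Ifitm1 at -0.26 and Ifitm2 at -0.06 (limma adjusted p = 0.126 and 0.566). Their relative Ifitm3 differed by -0.0035. The called genes were Oasl2 and Oas2 of the oligoadenylate synthetase family (0.59 and 0.42), Ifi27l2a (0.57), Lgals3bp, a secreted glycoprotein (0.51), the GTPase Iigp1 (0.44), Xaf1, which promotes apoptosis (0.40), Bst2, the virion tether tetherin (0.39), and the chemokine Cxcl10 (0.34). Their limma adjusted p-values ran from 0.00648 for Oasl2 to 0.0490 for Iigp1.

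Rtp4 read 8.11, 7.96 and 7.98 with control siRNA, against 8.59, 8.49 and 8.76 with H19 siRNA. Its log2 difference of 0.60 was the widest of the list and missed the threshold (limma adjusted p = 0.0548), as did that of the GTPase Mx2 at 0.56 (adjusted p = 0.0996). The count of effectors called was 19 with an intensity trend (18 higher, 1 lower). With the filter at the median it was 13 of the 28 left (12 higher, 1 lower). The count was 5 after median centring and 1 over all rows of the table. It was 3 without H19 siRNA replicate 2 and 0 in limma without any other single array, where 25 to 29 were higher and 1 lower at an unadjusted p under 0.05.

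Among 19 measured genes for the upstream receptors, kinases, STATs, IRFs and regulators 1 rose in limma and 0 fell. Over all units those shares were 0.125% and 0.0742%. In the list 10 had a positive difference, and the median was 0.01, as for all units. The 1 that rose was Usp18, the ISG15 protease that also shuts down interferon receptor signalling. It read 8.58, 8.40 and 8.58 with control siRNA, against 9.42, 9.33 and 9.38 with H19 siRNA, so its groups lay far apart. Its log2 difference was 0.85 (SE 0.06) with a limma adjusted p of 0.00759. Leaving out control replicate 1 or 3, or H19 siRNA replicate 1 or 3, ended the call, with adjusted p-values from 0.0567 to 0.0816.

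Next in size in that list were 3 components tied directly to Ifit control. Irf7, the interferon-inducible factor that amplifies the response, differed by 0.35 (limma adjusted p = 0.0812). Irf9 and Stat2, the DNA-binding and activating parts of the interferon-activated complex, differed by 0.30 (adjusted p = 0.0779) and 0.25 (adjusted p = 0.138). In all 3 the lowest H19 siRNA array was above the highest control array. Over the whole list 5 genes had that order and 3 the opposite one, where 10.5% and 7.09% of all units did, and 5 were higher and 2 lower at an unadjusted p under 0.05. The 2 lower ones, named after their values were seen, were the receptor chain Ifnar1 and the kinase Jak1, each at -0.12 (limma adjusted p = 0.310 and 0.355). With an intensity trend 4 genes of the list passed as higher and 1 as lower.

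Among 18 measured RNA sensors and adaptors 0 passed in limma, with 6 higher and 3 lower at an unadjusted p under 0.05. Of all 21559 units 1424 were higher and 916 lower at that p, and the list median was 0.02. The widest were inducible sensors: Ddx58 (RIG-I, a sensor of uncapped RNA ends) at 0.26 (limma adjusted p = 0.0750), Zbp1, a sensor of Z-form nucleic acid, at 0.26 (0.0954), and the RIG-I relatives Dhx58 and Ifih1 at 0.23 each (0.374 and 0.249). Under other settings up to 3 passed, all higher, that count with an intensity trend. The 10 measured interferon genes gave 0 calls in limma, with 1 higher and 0 lower at an unadjusted p under 0.05. Their differences ran from -0.0011 to 0.26 with a median of 0.08, and 9 of the 10 were positive, where 58.0% of all units were. Ifna4 had the widest, from a control mean of 5.07, and Ifnl2 (0.18) and Ifne (0.13) came next. On H19 siRNA replicates 1, 2 and 3 Ifnl2 read 8.03, 8.39 and 8.01, and Ifne 5.50, 5.80 and 5.41. Ifna5 read 7.69, 8.11 and 7.83 there. Replicate 2 was also the highest of its group in Ifna2, Ifna4 and Ifna11, but not in Ifnb1, Ifna13, Ifnk and Ifng. The share of positive differences was not tested without that array. Ifnb1, the interferon that non-immune cells make first, differed by 0.08 (adjusted p = 0.784), and 5 of the 10 interferon probe sets lay below the 30th percentile of all rows.

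Of 15 measured translation and cap-related genes tied to IFIT function 0 passed in limma, with 1 higher and 0 lower at an unadjusted p under 0.05. Their median was 0.01 and their range -0.03 to 0.10. Eif3c and Eif3e, subunits of the initiation factor that IFIT proteins bind, differed by 0.02 and -0.02, and these 2 were picked after their values were seen. The widest difference was in Eif3d at 0.10 (limma adjusted p = 0.336), followed by the capping enzyme Rngtt at 0.08, the initiation factor subunit Eif3i at 0.03 and the cap-binding Eif4e at 0.03. Eif3d passed the threshold in no alternative but the intensity trend, where 1 gene of the list was called.

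**Figure D3:**
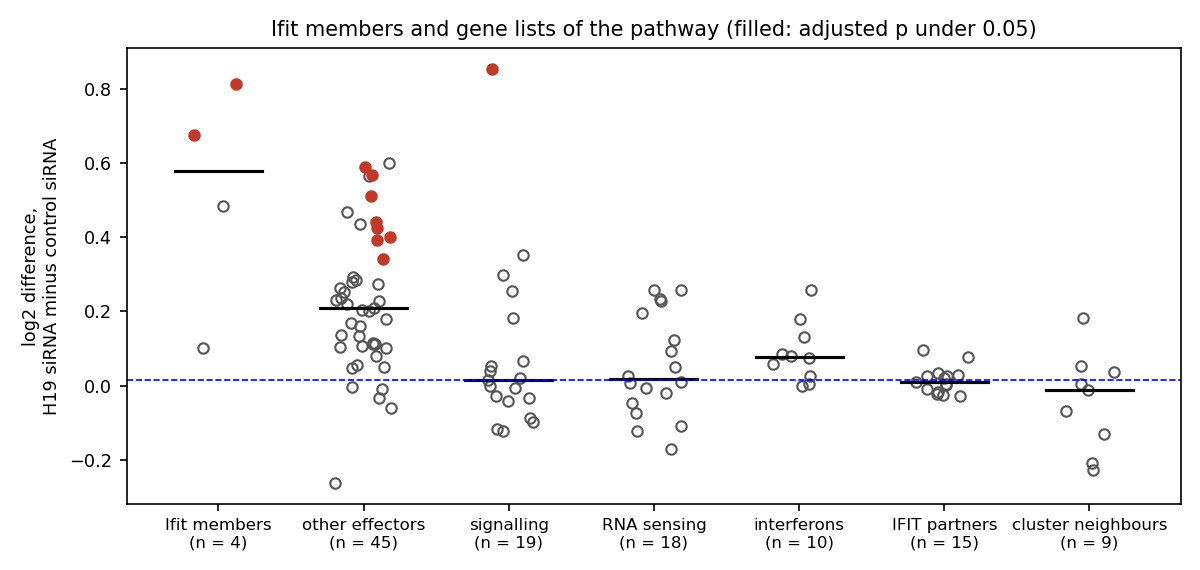
Log2 difference, H19 siRNA minus control siRNA (y axis), for the 4 Ifit members and 6 gene lists; each circle is a gene, filled red where the limma adjusted p was under 0.05, black bars are list medians and the dashed line is the median of all units (0.01). The effector list is centred at 0.21 and the interferon list at 0.08, and the medians of the signalling, sensing, partner and neighbour lists lie near the dashed line.

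The response element core was more frequent in the windows of effector genes than in those of genes at large. It was found for 13 of 33 effector genes with a RefSeq window (39.4%), for 4 of 14 sensing genes (28.6%) and for 3 of 18 signalling genes (16.7%), against 3.99% of all genes with a window. It was found for 0 of the 9 cluster neighbours. The 13 effectors with the motif had a median log2 difference of 0.22, and the 20 without it 0.16. In limma 2 of the 13 and 3 of the 20 were called, all higher. Effectors without a window, among them the called Oas2, Ifi27l2a and Iigp1, are in neither group. Over the whole array, 607 genes with the motif, Ifit1, Ifit3 and Ifit3b among them, had a median of 0.02, and 15007 genes without it 0.01. The 41 genes with 2 or more matches, again with Ifit1, Ifit3 and Ifit3b among them, had a median of 0.05. The members were chosen in view of this contrast, and the medians were not taken without them. Nothing is drawn from the order of these medians. These are descriptions of letters in a window, not of bound sites.

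The genes with the nearest profile to Ifit1 and Ifit3 were mostly interferon-inducible. Likeness was taken as the root-mean-square distance between log2 values, each gene set to its own control mean, over the 6 arrays. Nearest to Ifit1 were Oasl2 (0.07), Ifi27l2a (0.11), Rtp4 (0.11), Rdh5, a retinol dehydrogenase (0.13), and Mx2 (0.14), and Ifit3 itself lay at 0.12. Nearest to Ifit3 were Usp18 (0.11), Heyl, a Notch-induced repressor (0.16), Rtp4 (0.17), Oasl2 (0.18) and Ifi27l2a (0.18). Only 14 and 5 other genes of 19934 came within 0.2 of Ifit1 and Ifit3, and 29 came within 0.2 of Ifit3b.

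For Ifit2 that distance says little, since 19208 of the 19934 genes lay within 0.2 of it. Its nearest genes were E2f1, a cell cycle transcription factor, the noncoding RNA Dnm3os, Srebf2, a regulator of cholesterol synthesis, Nav1 and Mast2, all at 0.01 and none called in limma. The arrays enter these distances with their group, so the distances are a description and carry no test.

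**Figure D4:**
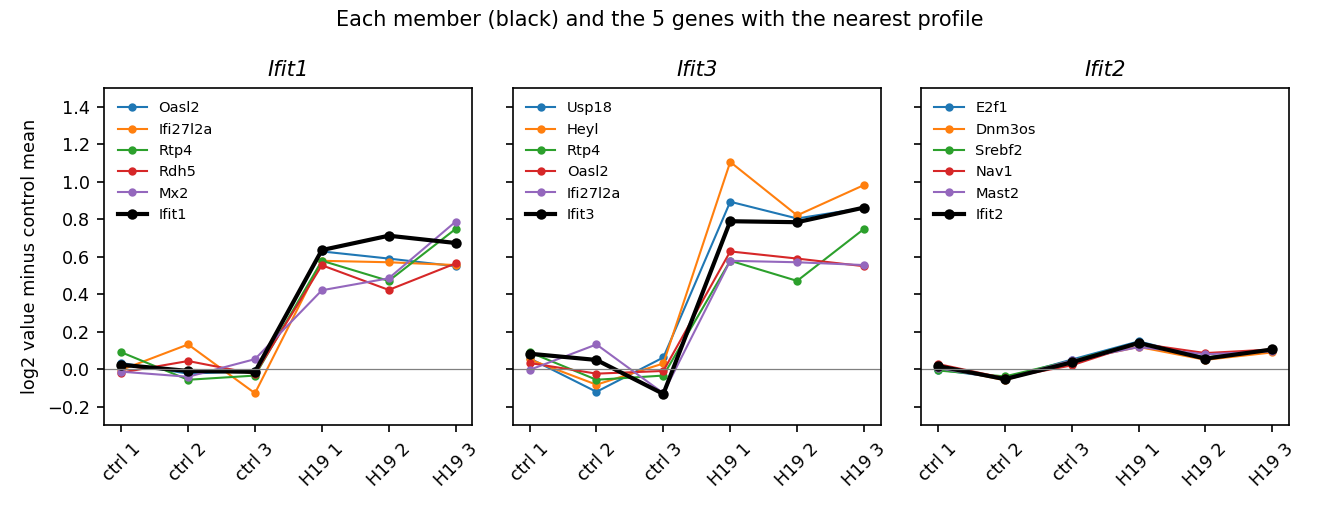
Log2 value minus the gene's control mean (y axis) on each of the 6 arrays (x axis) for Ifit1, Ifit3 and Ifit2 (black) and the 5 genes nearest to each (colours); lines only join the values of a gene. Ifit1 and Ifit3 sit among genes that differ by 0.51 to 0.97, and Ifit2 among genes that differ by 0.09 to 0.11.

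No immune marker passed the threshold in limma as higher, apart from Bst2. Of 10 leukocyte and macrophage markers 0 passed in limma, with 0 higher and 1 lower at an unadjusted p under 0.05. Their summed linear signal ran from 961 to 1005 on control arrays and from 915 to 966 on H19 siRNA arrays. Cd14 and Cd68 weigh most in that sum, with control means of 8.33 and 8.05, and differed by -0.13 and -0.19. Cd68 was the 1 lower marker (limma adjusted p = 0.278), while 5 of the 10 differences were positive. Ptprc, the common leukocyte marker, had means of 5.19 and 5.17, and 3 of the 10 lay below the 30th percentile of all rows. Among 5 endothelial markers 0 passed, with 0 at an unadjusted p under 0.05 in either direction. Of 5 plasmacytoid dendritic cell markers 1 rose in limma, where 0.125% of all units did. It was Bst2, which is also in the effector list. Irf8, Tcf4, Ccr9 and Siglech differed by 0.11, -0.05, 0.04 and -0.02. Of 10 muscle markers 0 passed in limma, with 5 higher and 0 lower at an unadjusted p under 0.05. In 9 of the 10 the difference was positive, as it was in 58.0% of all units, and their summed linear signal ran from 27152 to 27522 with control siRNA and from 29479 to 30526 with H19 siRNA. Their part in the Ifit differences was not tested, and in bulk RNA more cells of a type and more RNA per cell cannot be told apart.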

How the data were processed

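The authors deposited log2 expression values per probe set, which per the submitters' processing notes come from Affymetrix Expression Console with RMA. RMA corrects background, equalises array distributions and summarises probes, and it compresses differences near background. Software version and scanner files were not used here. Gene names are those of GEO's annotation of the platform. For genes with several probe sets the one with the highest mean was kept, probe sets with several symbols stayed as unnamed units, and the 12146 unlisted rows were left out, leaving 21559 units. The groups were compared by limma 3.58.1 (lmFit, eBayes, R 4.3.3), two-sided, on all 6 arrays without covariates, with Benjamini-Hochberg adjustment over all units and a threshold of 0.05. The fit was tested on simulated data. The number of arrays limits the precision.

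The members, the 11 gene lists and the rule for named genes were chosen with earlier results of these data known. Of 166 list entries 147 were measured, and the others were not analysed here. The rule named each member, the Mir675 probe set, called list genes and the 4 widest of each list, the cluster neighbours, markers, and the 5 nearest profiles of Ifit1, Ifit2 and Ifit3. The alternatives were an intensity trend with robust variance, filters at the 30th percentile and the median of unit means, array weights, median centring, a second quantile normalisation, all rows, the replicate number as a block and each array left out.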

Additional observations from a re-analysis of the deposited data

How the results depend on the processing

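The direction of all 4 members held in each alternative run. Log2 differences ranged from 0.65 to 0.69 for Ifit1, 0.07 to 0.12 for Ifit2, 0.75 to 0.85 for Ifit3 and 0.35 to 0.63 for Ifit3b, the ranges of the fits that left out an array. Ifit3b fell below both dim filters and has no value there, while the other 3 members passed them. The median of all units was 0.01 and -0.0028 after median centring. Counts of calls moved most. With an intensity trend 435 of 21559 units passed, 242 higher and 193 lower. Among them were 5 signalling, 3 sensing, 19 effector, 1 partner and 1 neighbour gene, the neighbour as lower. With the filter at the 30th percentile 111 of 15091 units, 3 of 19 signalling and 2 of 16 sensing genes passed. With the filter at the median 266 of 10779 units passed, 145 higher and 121 lower. There 4 of 17 signalling and 2 of 13 sensing genes passed, all higher. Of 28 effectors left 12 passed as higher and 1 as lower, and of 6 neighbours 1 as lower. With array weights 70 units, 2 signalling genes and 1 sensing gene passed, and after a second quantile normalisation 2 signalling genes and 1 sensing gene. Median centring gave 5 effectors. Over all rows 11 units, 1 member (Ifit1) and 1 effector passed. Leaving out an array gave 1 to 21 units, 0 to 2 members, 0 to 1 signalling and 0 to 3 effector genes, and 0 sensing, partner and neighbour genes, with fewer degrees of freedom. With the replicate block 3 units, 0 members and 0 effectors passed. The numbers did not pair the arrays: same-numbered arrays correlated at -0.02, -0.13 and -0.14 in their deviations, and 0 of 6 arrays correlated best with its own number. Signal over background is unknown, which limits the dim Ifit3b and interferon probe sets most.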
